A study of Mus musculus with 3 samples.

Results

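CD numbers are given to leukocyte surface molecules by the antibodies that recognise them, and the genes described here are those whose mouse symbol has the form of such a number. They were chosen by symbol, as symbols of the form Cd plus a number with at most 1 further letter and 1 further digit, on probes that carried exactly 1 gene symbol. Of 47 such symbols measured, 12 that belong to other gene groups (among them the coreceptor, CD3 epsilon and B cell receptor chains) were set aside, which left 35 genes of the 6795 gene symbols and 8905 features on the arrays. Of the 35, 34 were read by 1 probe and Cd93 by 2. The 35 are joined by nomenclature and not by a pathway: they include costimulatory receptors and their ligands, tetraspanins, adhesion molecules, and receptors of B cells and myeloid cells.

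The study set CD69hi thymocytes, purified from B6 (C57BL/6) wild-type animals, against unseparated thymocytes of Zap70-/- mice, comparing their RNA, on 3 spotted 2-colour arrays of one print. CD69 marks thymocytes that have lately received a T cell receptor (TCR) signal, and Zap70 is the kinase that carries that signal, so that in its absence thymocytes stop at the CD4+CD8+ double-positive stage. The titles call the Zap70-/- RNA CD69lo. The 2 RNAs differ in genotype and in purification at once, and neither the age nor the sex of the mice is stated in the labels. Each array gave 1 log ratio per probe, read as log2 and turned so that a positive value means more RNA in CD69hi than in Zap70-/- thymocytes. Cy3 labelled the CD69hi RNA on the first 2 arrays, and Cy5 labelled it on the third.

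No label states which dye is on top of the deposited ratio, so the direction is only a likely one. It was taken from the labelled dyes and from Rag1, the recombinase gene of immature thymocytes, whose log2 ratio averaged -1.19 ± 0.36 (SD, n = 3, limma adjusted p = 0.0348). Leaving out array 1 or array 2 ended its call (adjusted p = 0.133 and 0.18). Dntt, also a gene of immature thymocytes, averaged -1.05 ± 0.71 on the log2 scale without passing (adjusted p = 0.118). Read the other way round, every sign below would turn. Before turning, the ratios of array 3 correlated with those of arrays 1 and 2 at r = -0.25 and -0.40 across all probes. Turning changes only the sign of these values, and arrays 1 and 2 correlated with each other at 0.61. Over the 35 genes alone, the turned ratios of array 3 correlated with arrays 1 and 2 at r = 0.86 and 0.81, and those of arrays 1 and 2 with each other at 0.96. These are correlations across genes within arrays, and genes are not independent replicates. Nothing in the labels tells whether separate mice gave the RNA of each array, so p-values measure only the spread between arrays, which may be technical. Precision is limited by the number of arrays, 3.

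Several of these molecules are landmarks of thymocyte biology. Contact between the TCR and self peptides on stromal and dendritic cells is assisted by costimulation, in which CD28 on the thymocyte binds CD80 and CD86 on the presenting cell, and CD40 on the presenting cell is triggered by its ligand on the thymocyte. CD24 is high on double-positive cells and is lost as they mature, while CD44 marks the earliest precursors and again cells that have been activated. Tetraspanins gather integrins and receptors into membrane domains. Because bulk RNA was measured, fewer cells of a type and less RNA per cell cannot be told apart in any ratio that follows.

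Of the 35 CD-numbered genes, 9 rose in CD69hi RNA, 2 fell and 24 did not pass (limma, adjusted p at most 0.05 over all 8905 features). Across all features, 4.13% rose and 2.81% fell, 6.94% in all. The 9 were Cd44, Cd7, Cd86, Cd82, Cd37, Cd200, Cd300c2, Cd72 and Cd40, and the 2 were Cd164 and Cd80. The shares of the CD-numbered genes were 25.7% higher and 5.71% lower, and their median log2 ratio was 0.32, against 0.01 for all features. The medians of the 35 on arrays 1, 2 and 3 were 0.06, 0.12 and 0.38. On every array 16 of the 35 lay above 0 (45.7%, against 24.3% of all features) and 6 lay below 0 (17.1%, against 22.7%). A difference of at least 2-fold on every array was reached upward by 6 genes (1.89% of all features) and downward by 1 (0.955%). The counts depended on the arrays used: 4 of the 35 rose and 0 fell without array 1 (limma, 14 of the 35 with an unadjusted p of 0.05 or less), and 3 rose and 0 fell without array 2 (12 at that unadjusted p), whereas 10 passed without array 3.

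**Figure D1:**
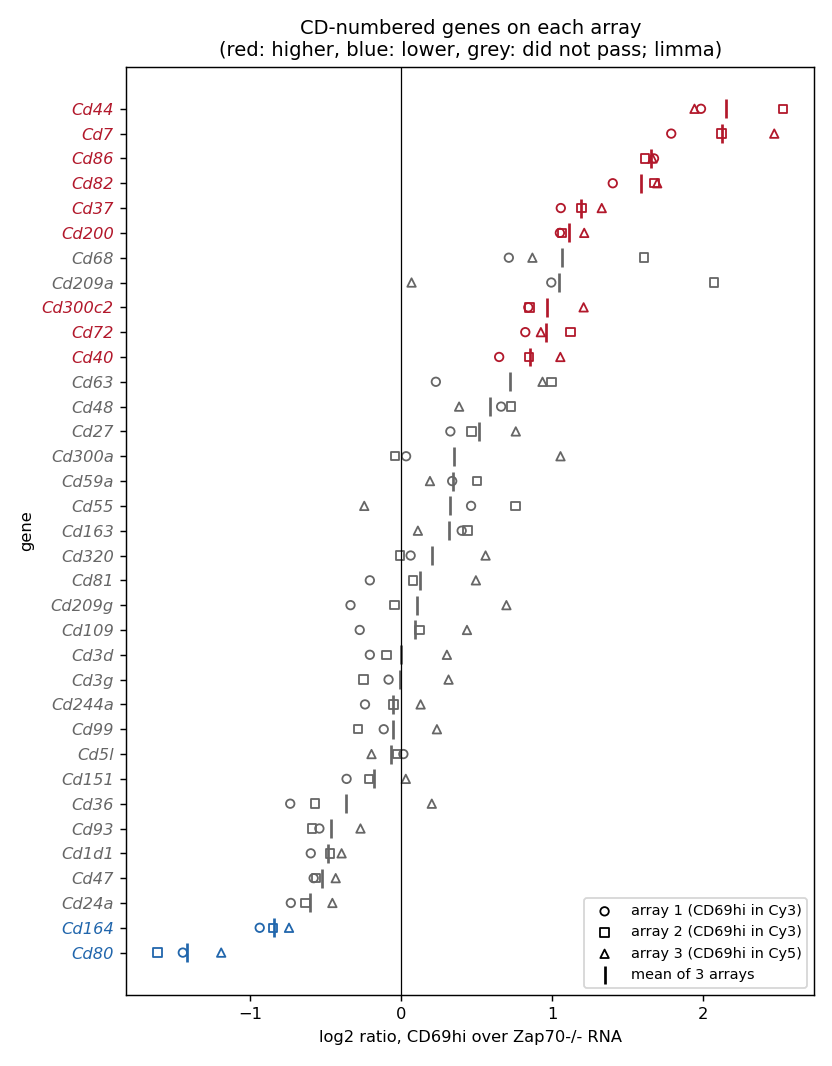
Log2 ratio of CD69hi over Zap70-/- RNA for each of the 35 CD-numbered genes, with a symbol for each array and a bar for the mean, ordered from the highest mean (Cd44, 2.15) to the lowest (Cd80, -1.42). The 9 genes that rose are red, the 2 that fell are blue and the 24 that did not pass are grey; Cd209a and Cd300a have arrays far apart.

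The genes listed as ligands of receptors on T cells held the widest split. The name is loose, as Cd200 and Cd47 are described below through myeloid receptors. Of the 6 genes on this list, 3 rose, 1 fell and 2 were not called, and the median log2 ratio was 0.53. Cd86, which encodes the B7-2 ligand of CD28 and CTLA-4, had log2 ratios of 1.67, 1.62 and 1.66 on arrays 1, 2 and 3. These were the closest 3 values of any of the 35 genes. The mean was 3.14-fold higher in CD69hi RNA (log2 ratio 1.65 ± 0.03, SD, n = 3, adjusted p = 0.00951), and Cd86 passed with each array left out. Cd80, which encodes the B7-1 ligand of the same 2 receptors, went the other way, with log2 ratios of -1.45, -1.61 and -1.19. It was 2.67-fold lower in CD69hi RNA (log2 ratio -1.42 ± 0.21, adjusted p = 0.0171) and held the lowest mean of the 35. The 3 arrays of Cd86 all lay above 0 and the 3 of Cd80 all below it. Without array 1 or array 2 the Cd80 call was lost (adjusted p = 0.0669 and 0.0894).

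Cd200 encodes a ligand that restrains myeloid cells through the CD200 receptor. Its log2 ratios were 1.05, 1.06 and 1.21, which made it 2.16-fold higher in CD69hi RNA (adjusted p = 0.0203). Cd40, the receptor through which T cells license B cells and dendritic cells, had log2 ratios of 0.65, 0.85 and 1.05 and was 1.80-fold higher (adjusted p = 0.0416). Both had all 3 arrays above 0, and neither passed without array 1 (adjusted p = 0.0879 for Cd200 and 0.128 for Cd40) or array 2 (0.131 and 0.265). Cd40 did not pass without array 3 either (adjusted p = 0.0545). Cd47, whose product binds the myeloid receptor SIRPα and protects cells from being engulfed, had log2 ratios of -0.58, -0.56 and -0.43, all below 0, and did not pass (adjusted p = 0.0872). Cd320 was placed on this list but encodes the transcobalamin receptor, which takes up vitamin B12. Its log2 ratio was 0.20 ± 0.31, which missed the threshold.

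Genes of antigen-presenting cells moved in the same RNA. Of 26 measured markers of macrophages, dendritic cells and granulocytes, 12 rose, 1 fell and 13 were not called, and the median log2 ratio was 1.02 and a range of -1.98 to 3.07. The list medians on arrays 1, 2 and 3 were 0.64, 1.21 and 0.80. Ccl22 (3.07 ± 0.37, SD, n = 3), Lyz2 (2.51 ± 0.08), Apoe (2.46 ± 0.14) and C1qa (2.23 ± 0.09) led it, and each of these 4 passed with any 1 array left out. Of the granulocyte genes on the list, Csf3r lay above 0 on every array (0.35 ± 0.12) and was not called. Another 6, singled out after their values were seen, lay the other way. S100a9 (-1.98 ± 1.17), Ngp (-1.64 ± 1.07), Camp (-1.14 ± 0.55), S100a8 (-0.87 ± 0.27), Ltf (-0.49 ± 0.17) and Mpo (-0.31 ± 0.11) were below 0 on every array. Of these 6, S100a8 alone fell (adjusted p = 0.0489), and its call ended when array 1, 2 or 3 was left out (adjusted p = 0.179, 0.347 and 0.0522) or the arrays were scaled (0.065). The number of markers rising was 8 without array 1 and 7 without array 2. Cd86, Cd80, Cd40, Cd72, Cd44 and Cd68 are all known from such cells as well, though Cd80 fell and Cd68 did not pass. Of the 6 CD-numbered genes listed as myeloid receptors, 0 passed (limma, 2 higher and 0 lower with an unadjusted p of 0.05 or less). The part of the 26 markers in the ratios of the CD-numbered genes was not tested. The files hold ratios and no levels, so the abundance of any marker in either RNA was not measured.

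Among T cell costimulation and adhesion receptors, 1 of 2 measured genes rose. Cd7, an immunoglobulin-family antigen of T and NK cells, had log2 ratios of 1.79, 2.12 and 2.47, each at least 2-fold above Zap70-/- RNA. Its mean was 4.36-fold higher in CD69hi RNA (log2 ratio 2.13 ± 0.34, SD, n = 3, adjusted p = 0.011), and the call held with each array left out (adjusted p from 0.023 to 0.0305). Cd27, a costimulatory receptor of the TNF receptor family that appears on developing T cells, had lower values of 0.33, 0.47 and 0.76. All 3 were above 0, and Cd27 did not pass (adjusted p = 0.124).

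The invariant CD3 chains did not differ detectably. Cd3d, the CD3 delta chain gene, had log2 ratios of -0.21, -0.10 and 0.30, and Cd3g, the gamma chain gene, had -0.08, -0.25 and 0.31. Both lay below 0 on arrays 1 and 2 and above 0 on array 3. The mean of Cd3d was near 0 (95% interval of the limma fit -0.41 to 0.41) and so was that of Cd3g (-0.43 to 0.42), so that CD69hi over Zap70-/- folds of up to 1.33 for Cd3d and 1.34 for Cd3g lie inside the intervals. On the list of T lineage markers, 10 genes were measured, Cd3d and Cd3g among them. None of the 10 rose, 1, Rag1, fell, and their median was -0.25 (limma, 0 higher and 3 lower with an unadjusted p of 0.05 or less). On every array 5 of the 10 lay below 0 (50%, against 22.7% of all features). By mean, 8 lay below 0 and 2 above it, Bcl11b (0.07 ± 0.83, SD, n = 3) and Thy1 (0.06 ± 0.09). The lowest means were those of Rag1 (-1.19 ± 0.36), Cd8a (-1.13 ± 0.62) and Dntt (-1.05 ± 0.71). Rag1 helped to set the direction and Dntt was read beside it, so their negative ratios are no separate result. Both are counted among the 5. Rag1 was no longer called without array 1 (adjusted p = 0.133) or array 2 (0.18). These ratios give no level in either RNA.

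The tetraspanins, membrane proteins that cross the bilayer several times and organise other receptors, gave 2 risers among 5 measured genes, and 0 fell (0 with an unadjusted p of 0.05 or less in limma). Cd82, which is raised on activated T cells, had log2 ratios of 1.40, 1.68 and 1.69 and was 3.01-fold higher in CD69hi RNA (adjusted p = 0.0118). Cd37, a tetraspanin of leukocytes that is abundant in B cells, had values of 1.06, 1.19 and 1.33 and was 2.29-fold higher (adjusted p = 0.0199). Both exceeded a 2-fold difference on each array. Leaving out array 2 ended the call of Cd82 (adjusted p = 0.058), and leaving out array 1 or array 2 ended that of Cd37 (0.0706 and 0.121).

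The other 3 tetraspanins did not pass. Cd63, a protein of late endosomes and secretory granules, had log2 ratios of 0.23, 1.00 and 0.94. Arrays 2 and 3 were close to each other for Cd63 and array 1 was lower (adjusted p = 0.119). Cd81, a widely expressed tetraspanin, ran from -0.21 to 0.49, and Cd151, a partner of laminin-binding integrins, from -0.36 to 0.03, so both had arrays on either side of 0. Of 9 tetraspanin genes under another symbol, 0 passed (limma, 1 higher and 1 lower with an unadjusted p of 0.05 or less), and their median was -0.05. Tspan3 (-0.69 ± 0.12, SD, n = 3, adjusted p = 0.0526) and Tspan14 (0.50 ± 0.14, adjusted p = 0.105) had the largest moderated t in that list. A dye term (adjusted p = 0.0429) or the loss of array 3 (0.0488) brought Tspan3 past the threshold.

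Adhesion, matrix and mucin-like antigens ran in both directions, with 1 of 6 genes higher, 1 lower and 4 not passing, and a median of -0.26. Cd44, the hyaluronan receptor, had log2 ratios of 1.98, 2.53 and 1.94, the highest mean of the 35 genes (4.44-fold in CD69hi over Zap70-/- RNA, adjusted p = 0.0106). It passed with each array left out (adjusted p from 0.0287 to 0.0318). Cd164, a sialomucin found on haematopoietic precursors and in endosomes, had log2 ratios of -0.94, -0.85 and -0.74. It was 1.79-fold lower in CD69hi RNA (log2 ratio -0.84 ± 0.10, SD, n = 3, adjusted p = 0.034), a call that was lost without array 1 (adjusted p = 0.174) or array 2 (0.255).

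Cd24a, which encodes the heat-stable antigen of immature thymocytes, had log2 ratios of -0.73, -0.64 and -0.46. All 3 were below 0, and the mean of -0.61 ± 0.14 did not pass (adjusted p = 0.0716), although it did with a dye term in the fit (adjusted p = 0.0486). Cd93, a C-type lectin-like receptor of endothelial, myeloid and early B cells, also lay below 0 on every array (-0.54, -0.59 and -0.27), and each of its 2 probes did so by itself. Its adjusted p was 0.132. Cd99, which guides leukocytes through endothelium, and Cd109, a GPI-anchored protein that binds TGF-β receptors, had means of -0.06 ± 0.27 and 0.09 ± 0.36 with arrays on both sides of 0.

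The proximal promoters of the highest gene, Cd44, and of the 2 genes that fell, Cd80 and Cd164, are shown to set the sequences beside the ratios. They are RefSeq's (GRCm38.p6), 250 bases before the annotated start, with the gene's own strand written 5′ to 3′. Capitals mark any of 5 motifs that were searched on both strands. A GC box, which Sp1-type factors bind, was searched as GGGCGG. The RUNX motif, named for the factors that steer the choice between the CD4 and CD8 lineages, was searched as TGTGGT. For AP-1, the Fos and Jun dimer that is switched on by signals of the antigen receptor, the letters were TGANTCA. The TATA box of strong core promoters, placed shortly before the start site in such genes, was searched as TATAAA. The NF-κB motif is given by name. The intervals are chr2:102901666-102901915 on the minus strand for Cd44, chr16:38458683-38458932 on the plus strand for Cd80 and chr10:41519250-41519499 on the plus strand for Cd164.
Cd44: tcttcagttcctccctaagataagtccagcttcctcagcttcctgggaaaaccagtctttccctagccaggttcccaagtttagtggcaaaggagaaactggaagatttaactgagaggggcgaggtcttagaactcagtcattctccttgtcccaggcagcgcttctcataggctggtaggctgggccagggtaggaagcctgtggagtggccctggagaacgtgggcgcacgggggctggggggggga
Cd80: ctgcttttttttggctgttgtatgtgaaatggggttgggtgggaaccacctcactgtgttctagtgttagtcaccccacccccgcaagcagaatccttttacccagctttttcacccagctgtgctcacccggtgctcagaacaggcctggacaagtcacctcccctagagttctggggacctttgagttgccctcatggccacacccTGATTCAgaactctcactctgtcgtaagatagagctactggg
Cd164: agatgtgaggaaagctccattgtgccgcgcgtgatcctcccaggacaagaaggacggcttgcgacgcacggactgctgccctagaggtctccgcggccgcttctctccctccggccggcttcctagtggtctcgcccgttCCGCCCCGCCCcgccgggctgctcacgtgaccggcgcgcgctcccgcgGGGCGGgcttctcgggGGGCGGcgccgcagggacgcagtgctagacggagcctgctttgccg

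The Cd164 promoter held 4 GC boxes, 2 of them overlapping, the Cd80 promoter held 1 AP-1 motif, and the Cd44 window held none of the 5 motifs. Among all 32851 promoters of the same length, 32.7% held a GC box, 12.4% a TATA box, 14% a RUNX motif, 6.75% an AP-1 motif and 3.9% the NF-κB motif. Promoter sequences were matched for 27 of the 35 genes, 8 of them among the 11 that passed. The 6 risers matched had 9 promoters, of which 4 held a GC box, 3 a RUNX motif (in Cd82 and Cd300c2), and 0 a TATA box, an AP-1 motif or the NF-κB motif. A match describes letters and is not a binding site.

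Of the receptors listed for myeloid cells, 0 of 6 passed (limma, 2 higher and 0 lower with an unadjusted p of 0.05 or less), and their median was 0.33. Cd300c2, a myeloid receptor that rose, was listed only under its synonym Cd300c and so was not counted here. Cd68, a lysosomal glycoprotein of macrophages, had log2 ratios of 0.71, 1.61 and 0.87, all above 0, and was 2.09-fold higher on average (adjusted p = 0.0617). Cd209a, the dendritic cell lectin DC-SIGN, had values of 0.99, 2.07 and 0.07. Its arrays were further apart than those of any other of the 35 genes (SD 1.00), and array 3 showed next to no difference (adjusted p = 0.209). Cd300a, an inhibitory receptor, was the reverse case, with 0.03 and -0.04 on arrays 1 and 2 and 1.05 on array 3.

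The macrophage scavenger receptor Cd163, which clears haemoglobin, had log2 ratios of 0.40, 0.44 and 0.11 (adjusted p = 0.262). Cd36, the fatty acid and thrombospondin receptor, had -0.74 and -0.57 on arrays 1 and 2 and 0.20 on array 3. Cd5l, a soluble protein secreted by tissue macrophages and included only by the form of its symbol, stayed between -0.20 and 0.01. Of the 2 genes outside the role lists, Cd300c2, a myeloid receptor of the CD300 family, rose, with log2 ratios of 0.84, 0.85 and 1.21 (1.95-fold in CD69hi over Zap70-/- RNA, adjusted p = 0.0335). Cd209g, a relative of Cd209a, averaged 0.11 ± 0.53 and missed the threshold. Cd300c2 did not pass without array 1 (adjusted p = 0.119) or array 2 (0.177). Probes of the CD209 and CD300 families can bind transcripts of their close relatives, so their values are uncertain.

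Cd72, an inhibitory receptor of B cells, was the only CD-numbered gene on the list of B cell coreceptors and inhibitors. It had log2 ratios of 0.82, 1.12 and 0.92 and was 1.94-fold higher in CD69hi RNA (adjusted p = 0.0309). All 3 arrays lay above 0. It did not pass without array 1 (adjusted p = 0.112) or array 2 (0.236). A further probe annotated to both Tesk1 and Cd72 was not counted, and it had log2 ratios of 0.52, 0.67 and 0.68. Of 10 measured B cell markers, 0 passed (limma, 4 higher and 0 lower with an unadjusted p of 0.05 or less), with a median of 0.33. With single probes fitted, 1 of the 10 rose. Cd79a (1.40 ± 0.70, SD, n = 3, adjusted p = 0.0623) and Fcrla (0.69 ± 0.25, adjusted p = 0.075) had the largest moderated t there. By mean, 7 of the 10 lay above 0 and 3 below it. The 3 were Cd79b (-0.35 ± 0.48), Vpreb3 (-0.34 ± 0.14, below 0 on every array) and Ebf1 (-0.09 ± 0.32). Cd22, another inhibitory receptor of B cells, was measured on that marker list and did not pass (0.425 ± 0.394, adjusted p = 0.269). The part of B cell transcripts in the ratio of Cd72 was not tested.

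No gene of the SLAM family, the complement regulators or lipid presentation passed in limma. In the SLAM family, 0 of 2 passed (1 higher with an unadjusted p of 0.05 or less). Cd48, a GPI-anchored ligand, had log2 ratios of 0.66, 0.73 and 0.38, all above 0 (adjusted p = 0.0854), while Cd244a, its receptor 2B4, stayed between -0.24 and 0.13. In the SLAM genes and adaptors under another symbol, 1 of 4 rose, the Src kinase Fyn (1.57 ± 0.16, SD, n = 3, adjusted p = 0.0118), and the median was -0.01. Leaving out array 2 ended the call of Fyn (adjusted p = 0.0596). Of the complement regulators, 0 of 2 passed (0 with an unadjusted p of 0.05 or less). Cd59a, which blocks the membrane attack complex, had log2 ratios of 0.34, 0.50 and 0.19, and Cd55, which dissolves the convertases, had 0.46, 0.76 and -0.25. A further probe annotated to both Cd55b and Cd55 had a mean log2 ratio of -0.13 ± 0.13. Cd1d1, through which double-positive thymocytes present lipids to developing NKT cells, had log2 ratios of -0.60, -0.47 and -0.40. These were all below 0, and Cd1d1 did not pass (adjusted p = 0.105, unadjusted p = 0.0138).

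**Figure D2:**
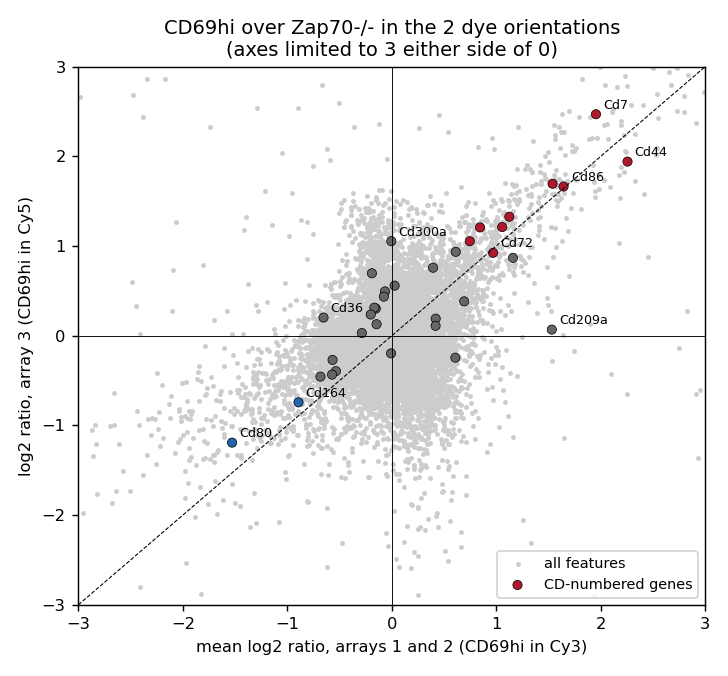
Log2 ratio on array 3 (CD69hi RNA in Cy5) against the mean log2 ratio of arrays 1 and 2 (CD69hi RNA in Cy3) for the 35 CD-numbered genes (large points, coloured red for higher, blue for lower and grey for not passing) and all 8905 features (small grey points), with the line of equality dashed. The risers and fallers lie near the line, Cd209a below it and Cd300a and Cd36 above it; 92 features fall outside the axes.

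The 2 dye orientations were set side by side. Array 3 lay above the mean of arrays 1 and 2 in 26 of the 35 genes (74.3%), against 53.7% of all features, and the median gap was 0.27 for the 35 and 0.05 for all features. In 11 of the 35 the sign of array 3 differed from that of the mean of the other two, and all 11 were among the genes that did not pass, which passing on 3 arrays itself requires. Cd300a (1.06), Cd209g (0.89) and Cd36 (0.86) had array 3 furthest above the other two, and Cd209a (-1.46) and Cd55 (-0.85) had it furthest below. For the 11 genes that passed, the gap ran from -0.32 in Cd44 to 0.52 in Cd7. With a dye term in the fit, that term passed for 0 of the 35 genes and 0 of all features (limma). Its lowest adjusted p among the 35 was 0.148, in Cd300a, and 5 of the 35 (14.3%) had an unadjusted p of 0.05 or less for it, against 24.3% of all features. Only 1 residual degree of freedom remains in it, so a dye bias in these genes is not shown to be absent.

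The CD antigens whose genes carry another symbol gave a similar share of calls. Of 62 measured, 16 rose (25.8%), 3 fell (4.84%) and 43 were not called, and the median log2 ratio was 0.35. The highest were the chemokine receptor Ccr7, at 3.25 ± 0.44 (SD, n = 3), the TNF receptor family member Tnfrsf9 (CD137), at 2.85 ± 0.64, the interleukin-7 receptor Il7r (CD127), at 2.76 ± 0.22, and the integrin chain Itgb3 (CD61), at 2.37 ± 0.75. The first 3 of these passed with any 1 array left out, and Itgb3 did not pass without array 2 (adjusted p = 0.0534) or array 3 (0.0528). The number rising was 6 without array 2 and 10 without array 3, and 0 fell without array 1 or array 2. Of these 62 genes, 4 are also on the myeloid marker list and 3 on the B cell list.

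Costimulatory genes under another symbol were few. Of 10 measured, 4 rose and 0 fell (limma, 7 higher and 0 lower with an unadjusted p of 0.05 or less), with a median of 0.76, and 4 of the 10 are among the 62 just described. Beside Tnfrsf9, the risers were the inhibitory receptor Btla (1.95 ± 0.41, SD, n = 3), the adhesion ligand Icam1 (1.49 ± 0.08) and Sirpa (1.20 ± 0.38), the myeloid receptor of CD47. Icam1 did not pass without array 2 (adjusted p = 0.0617), and Sirpa did not pass without array 1 (0.0538), array 2 (0.187) or array 3 (0.0758). The number rising was 2 without array 2. Sirpa rose while its ligand gene Cd47 averaged -0.53 ± 0.08, without passing.

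**Figure D3:**
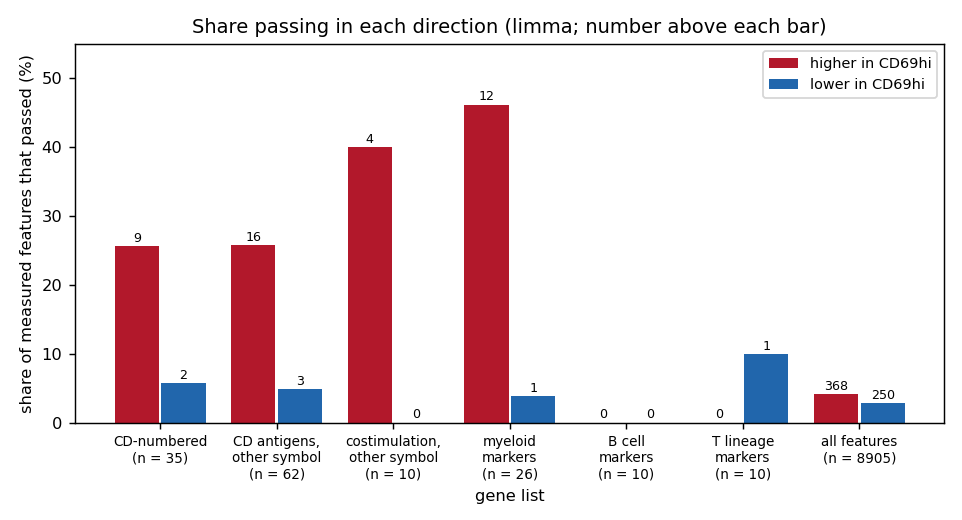
Share of measured features (percent, axis from 0) that passed upward (red) and downward (blue) in CD69hi over Zap70-/- RNA, for the CD-numbered genes, 2 lists of related surface molecules, 3 marker lists and all features, with the number of features above each bar. The CD-numbered genes (25.7% higher) and the CD antigens under another symbol (25.8% higher) had similar shares, the myeloid markers 46.2% and all features 4.13%.

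The other marker lists were short. Of 8 NK and innate-like lymphocyte genes, 37.5% were called: 2 rose (Ccl5, 1.05 ± 0.24, and Klrk1, 0.91 ± 0.13, SD, n = 3) and 1 fell (Gzma, -2.29 ± 0.94), with a median of 0.53. None of these 3 passed without array 1 (adjusted p = 0.127, 0.141 and 0.109) or array 2 (0.209, 0.188 and 0.0867). Of 9 erythroid and platelet genes 0 passed (limma, 2 higher and 0 lower with an unadjusted p of 0.05 or less, median 0.08). Alas2 (0.53 ± 0.21) and Gp9 (0.49 ± 0.27) had the largest moderated t there. By mean, 6 of the 9 lay above 0 and 3 below it, with Epor (-0.60 ± 0.52) below 0 on every array. Of 13 thymic stroma and endothelial genes 0 passed (0 higher and 2 lower with an unadjusted p of 0.05 or less, median -0.05), with Epcam (-0.95 ± 0.60) and Col1a2 (-0.48 ± 0.22) leading. Epcam passed without array 3 (adjusted p = 0.0291), and Epcam and Col1a2 both passed with a dye term (0.0351 and 0.0488).

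**Figure D4:**
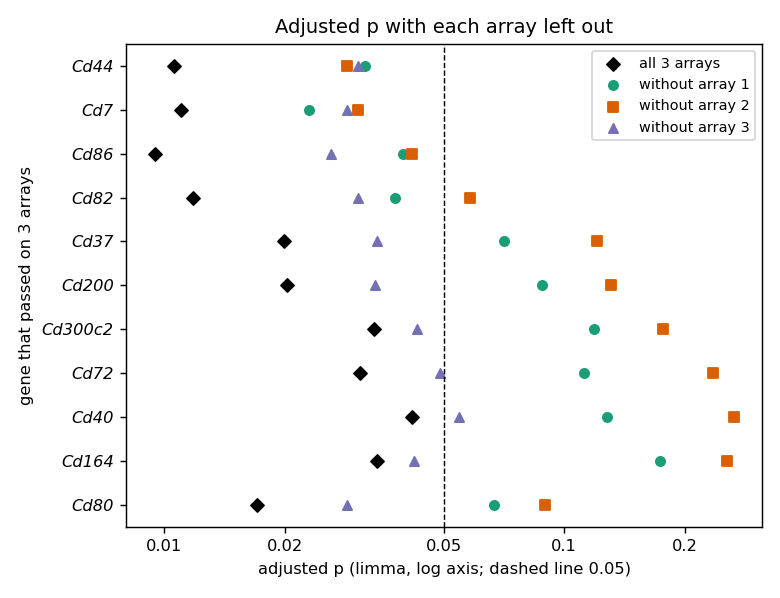
Adjusted p of the 11 CD-numbered genes that passed on all 3 arrays (black diamonds) and with array 1, 2 or 3 left out (limma, log axis, dashed line at 0.05). Cd44, Cd7 and Cd86 stay left of the line in every fit, and Cd40 is right of it in each fit on 2 arrays.

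Of the 11 genes that passed, 3 (Cd44, Cd7 and Cd86) passed in all 3 fits that left out an array, 1 (Cd82) in 2 of them, 6 in 1 of them and 1 (Cd40) in none. The 6 were Cd37, Cd200, Cd300c2, Cd72, Cd164 and Cd80, and each of them passed when array 3 was left out (adjusted p from 0.0287 to 0.049). In that fit CD69hi RNA carried Cy3 on both arrays, so that the dye and the RNA cannot be told apart. Each of the 11 genes had all 3 arrays on one side of 0, so no mean of 2 arrays could change sign. A fit on 2 arrays has fewer residual degrees of freedom, and a call lost there need not be a smaller ratio. Means of lost calls moved both ways. Cd40 averaged 0.75 without array 3 against 0.85 on all 3 arrays, and Cd37 averaged 1.26 without array 1 against 1.19.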

How the data were processed

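The deposited values were 1 log ratio per probe and array for 9596 probes, taken as log2 values. No label gives the log base, the background correction or the normalization, and a natural logarithm would make every fold larger. Arrays 1 and 2 were turned (times -1) to read CD69hi over Zap70-/-. With ratios alone, no filter on dim spots could be set. The platform annotation paired 7486 probes with 1 gene symbol, 483 with several and 1627 with none, and 7395 of the 1-symbol probes matched RefSeq gene identifiers (0 symbols changed). The 1-symbol probes were averaged per symbol.

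Ratios were fitted with limma 3.58.1 in R 4.3.3 (lmFit and eBayes, 1 coefficient, no dye term, 2 residual degrees of freedom plus 2.75 from eBayes). Two-sided p-values were adjusted by Benjamini and Hochberg's method across the 8905 features, and passing means an adjusted p of at most 0.05. Gene lists are given as counts and medians with no set test. The fit was tested on simulated data. The members and the lists were chosen with earlier results of these data known. All members are named, and in each other list up to 4 that passed or, where none did, the 2 with the largest moderated t. Alternatives were a dye term, scaling, centring, robust or no shrinkage, single probes, array 3 unturned and each array left out.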

Additional observations from a re-analysis of the deposited data

How the results depend on the processing

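The 11 calls among the CD-numbered genes were kept, with the same genes and signs, after scaling the arrays, centring them and robust shrinkage. A dye term kept all 11 and added Cd24a, and single probes gave 9 higher and 2 lower. With array 3 left unturned, 0 genes rose and 0 fell (limma, 2 of the 35 with an unadjusted p of 0.05 or less), and over all features 0 rose and 0 fell (342 at that unadjusted p). Without shrinkage the counts were also 0 among the 35 (16 with an unadjusted p of 0.05 or less) and 0 over all features (1731). Over all features, 562 rose and 514 fell with a dye term, against 368 and 250 without it. With an array left out, the CD-numbered genes rising ranged from 3 to 8 and those falling from 0 to 2, and all features rising ranged from 95 to 283 and falling from 24 to 409. Each array already pairs the 2 RNAs in its ratio, so no further replicate block was fitted. Signal over background was not measured here, so the precision of dim spots is unknown, and 24 genes that did not pass are not thereby unchanged.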
